A study of Canis lupus familiaris with 22 samples.

Results

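The genes described here make and sense leukotrienes and prostaglandins in the blood of dogs, and were followed in healthy dogs and in dogs with canine atopic dermatitis (cAD). They are the enzymes *ALOX5*, *LTA4H*, *LTC4S*, *ALOX15*, *PTGS1* and *PTGS2*, the enzyme helper *ALOX5AP*, and the receptors *PTGDR2*, *PTGER4* and *CYSLTR1*. Members were found as transcript probes carrying the gene symbol in the array files, which gave 11 probes for 8 of the 10 genes. *PTGDR2* had 2 probes under its older symbol *GPR44*, which RefSeq lists as a synonym, and *CYSLTR1* was matched to no probe and is only named. In all, 13 probes of 9 genes were measured, among 43603 different transcript probes with 34382 gene names.

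Gene expression was measured on 22 two-colour Agilent canine microarrays. The groups were 8 healthy control dogs (ctrl), 7 cAD patients before allergen-specific immunotherapy (ASIT) and the same 7 dogs after 6 months of ASIT. Dogs of several breeds were in both groups. RNA of each dog was labeled with Cy5 and hybridized together with a common reference, a pool of RNA of 13 further healthy dogs labeled with Cy3, with no exchange of the dyes. The labels name venous whole blood, whereas the study's own text speaks of peripheral blood nuclear cells. Probes of neutrophils (*CSF3R*, *S100A8*), monocytes (*CD14*), T cells (*CD3E*), B cells (*CD79A*), platelets (*PPBP*) and the erythroid lineage (*ALAS2*) were above background on all 22 arrays. A signal per gene therefore mixes several kinds of cell, and fewer cells of a type cannot be told apart from less RNA per cell.

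Leukotrienes and prostaglandins are short-lived lipid signals made from arachidonic acid, which phospholipases release from membranes. The 5-lipoxygenase branch yields leukotriene B4, which attracts neutrophils, and the cysteinyl leukotrienes, which constrict airways and make vessels leak. The cyclooxygenase branch yields prostaglandins and thromboxane, among them prostaglandin D2, which mast cells release in allergic reactions.

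Values are log2 ratios of dog over reference, so 0 means the level of the pooled healthy reference, and a difference of 1 between groups is a doubling. Comparisons are written as 0 vs. ctrl (before ASIT minus ctrl), 6 months vs. ctrl (after ASIT minus ctrl) and 0 vs. 6 months (before minus after). Each probe was tested in limma, a linear model with moderated spread over all 38292 tested probes, and single values also by an exact permutation test of the difference of means. A probe counts as called when its p, adjusted by Benjamini and Hochberg's method over all tested probes, is under 0.05. Permutation and limma tests are 2-sided. Both take all arrays as independent, so for 0 vs. 6 months they leave out that the same dogs were sampled at both times. Sign-flip tests within dogs keep this pairing.

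Most member probes were clearly above background, while *PTGS2* and, on some arrays, *LTC4S* and 1 of the 2 *PTGDR2* probes were dim. Of the 13 probes, 12 had Cy5 well above background on all 22 arrays, and 11 did so in both channels. The *LTC4S* probe was above background in Cy5 on every array, but in the Cy3 reference on 8 ctrl arrays, 7 arrays before ASIT and 3 after ASIT. For *PTGS2*, Cy5 exceeded background on 3 of 8 arrays in ctrl, with 3 of 7 before ASIT and 1 of 7 thereafter. No probe was saturated, and of the 286 ratios 1 was exactly 0, that of *PTGS2* in dog 6 after ASIT. All 13 probes passed the filter for testing.

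Signal strength was lower on most patient arrays than on ctrl arrays. Over transcript probes, the median percentage detected in Cy5 was 87.8% in ctrl, 62.6% before ASIT and 61.7% after ASIT. In Cy3, which carried the same reference on every array, these medians were 81.6%, 58.0% and 56.8%. The Cy5 percentage ran from 83.7% to 92.2% in ctrl, from 53.3% to 87.4% before ASIT and from 57.2% to 81.6% after ASIT. Hybridization used 6 slides, and scanning took place on 4 days. On slide 3 the Cy5 percentage was 87.4% and 61.2% in dogs 1 and 2 before ASIT, and 81.6% and 80.8% in the same dogs after ASIT. The other 10 patient arrays, on slides 4 to 6, had at most 64.9%. Ctrl arrays filled slides 1 and 2 and the first scan day alone, so disease and the first scan day cannot be told apart. Slides 3 and 4 held arrays from before and after ASIT, and dogs 1, 2 and 3 had both of their arrays on the same slide. The lowest correlation between any pair of arrays was r = −0.22 over the log ratios of transcript spots. Precision is limited by how many arrays each group holds.

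The comparisons ask how patients differ from healthy dogs before and after ASIT, and how patients differ between these times. No member probe was called by limma in any of them. In 0 vs. ctrl, limma called 0 of the 13 member probes, beside 0.0418% of all tested probes (16 of 38292). With single arrays left out, the calls over all probes ran from 0 to 440 in this comparison, and those of members stayed at 0. For 6 months vs. ctrl the count was 0 of 13, beside 0% of all tested probes. The count for 0 vs. 6 months was likewise 0 of 13, beside 0%. With the dog as a fixed block, which keeps the pairing, limma also called 0 of all probes in 0 vs. 6 months. In that fit 2511 of all probes had an unadjusted p under 0.05. At an unadjusted p under 0.05, 0, 1 and 0 member probes passed in the same order, and 4494, 2758 and 2283 of all probes. The one-way test with Tukey's test named in the methods was also run, on the same scanner ratios and the same filter as limma. It called 0 member probes and 0 of all probes in each comparison, with 2470, 1083 and 995 of all probes under an unadjusted 0.05. The study filtered its probes by flags and coefficient of variation in other software, so these counts do not repeat its own analysis.

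The groups overlapped for every member. In 0 vs. ctrl, 0 of 13 member probes had groups that did not overlap, beside 0.219% of all tested probes. After ASIT against ctrl this held for 0 of 13, beside 0.11%, and for 0 vs. 6 months it was 0 of 13, beside 0.0183%. Of 39 exact permutation tests on member probes, 2 gave an unadjusted p under 0.05, for *PTGER4* in 0 vs. ctrl and for *LTC4S* in 6 months vs. ctrl. That share is close to the 0.05 that the threshold passes without any difference, and no share over all probes is given for this test. In the 13 exact sign-flip tests within dogs the lowest p was 0.234, for the other probe of *PTGS1*.

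Enzymes and receptors can be set side by side by the most strongly detected probe of each gene. *ALOX5AP*, the helper, is counted here among 7 enzymes, and the highest enzyme value in 0 vs. ctrl is that of the dim *PTGS2* probe. In 0 vs. ctrl, 3 of 7 enzyme differences were positive, with a median of −0.0025 and a range of −0.15 to 0.54, while the 2 receptor differences were 0.33 and 0.46. In 6 months vs. ctrl, 6 of 7 enzyme differences were positive, with a median of 0.15 and a range of −0.09 to 0.48, and the receptor differences were 0.16 and 0.78. In 0 vs. 6 months, 2 of 7 enzyme differences were positive, with a median of −0.17, and the receptor differences were −0.32 and 0.17. Over all 13 probes the median difference was −0.0066, 0.15 and −0.17 in the same order, and over all tested probes it was −0.02, −0.04 and −0.0092. The comparisons with ctrl share the same 8 control arrays.

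**Figure D1:**
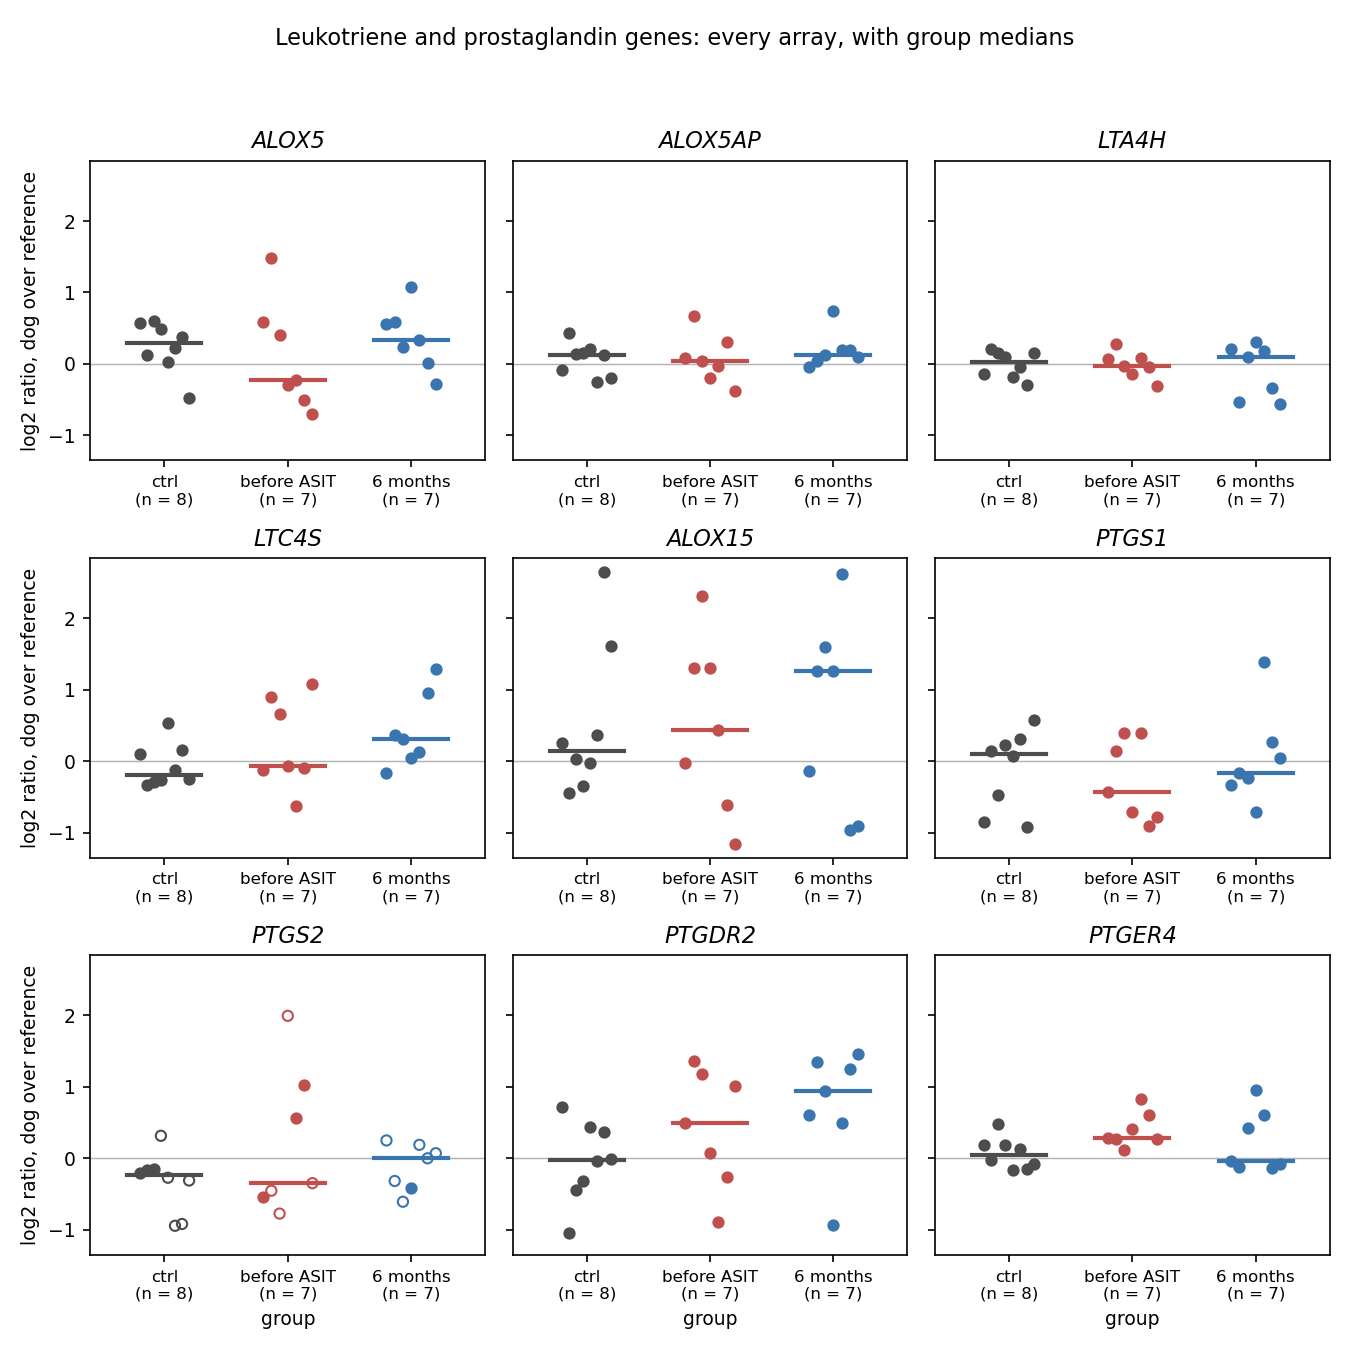
Log2 ratio of dog over reference (y axis) for the leading probe of each of 9 genes in ctrl, before ASIT and after 6 months of ASIT (x axis). Each point is an array, open points mark Cy5 not well above background, and bars are group medians. The groups overlap for all 9 genes, and *ALOX15* has the widest range, from −1.16 to 2.65.

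The leukotriene branch starts with *ALOX5*, the 5-lipoxygenase that oxidizes arachidonic acid (probe at chr28:2171437-2171496 of canFam3.1). Its log2 ratio had a lowest, median and highest value of −0.47, 0.30 and 0.60 in ctrl, −0.70, −0.23 and 1.49 before ASIT, and −0.28, 0.33 and 1.08 after ASIT. The patients before ASIT spanned a wider range than ctrl and enclosed it. The differences were −0.13 ± 0.27 (SE) in 0 vs. ctrl (limma adjusted p = 0.891), 0.12 ± 0.27 in 6 months vs. ctrl (0.934) and −0.25 ± 0.28 for 0 vs. 6 months (0.934). With single arrays left out, the *ALOX5* difference ran from −0.36 to 0.0021, from 0.00087 (without dog 4 after ASIT, at 1.08) to 0.23, and from −0.48 to −0.12 in the same order. The Cy5 channel alone gave 0.18 in 0 vs. ctrl, with the sign turned, and 0.28 in 6 months vs. ctrl. Before ASIT the 3 dogs above 0 were dogs 1, 2 and 3, and the other 4 dogs lay between −0.70 and −0.23. Within slide 3 (2 arrays before, 2 after) the 0 vs. 6 months difference was 0.46, within slide 4 (2 before, 1 after) −0.18, and with the slide as a fixed block 0.21, so the sign of the pooled value was not kept.

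*ALOX5AP* encodes the membrane protein that hands arachidonic acid to 5-lipoxygenase (chr25:9320994-9321053). Its values ran from −0.25 through a median of 0.13 to 0.43 in ctrl, from −0.37 through 0.05 to 0.68 before ASIT, and from −0.05 through 0.13 to 0.74 after ASIT. These are narrow and overlapping ranges, and only 12.8% of tested probes had a smaller pooled SD within groups than its 0.277. The differences were 0.0070 ± 0.16 in 0 vs. ctrl (limma adjusted p = 0.993), 0.13 ± 0.16 in 6 months vs. ctrl (0.866) and −0.12 ± 0.16 for 0 vs. 6 months (0.934). Leaving out single arrays moved the *ALOX5AP* values between −0.09 and 0.08, between 0.04 and 0.18, and between −0.22 and −0.03. For 0 vs. 6 months the difference was 0.38 within slide 3, −0.21 within slide 4 and 0.15 with the slide as a fixed block, so its sign was not kept.

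*LTA4H* encodes the hydrolase that forms leukotriene B4 and was measured by 3 probes, whose differences between groups did not all share a sign. The leading probe (chr15:35796195-35796254) ran from −0.29 through 0.03 to 0.21 in ctrl, from −0.30 through −0.02 to 0.27 before ASIT, and from −0.57 through 0.10 to 0.31 after ASIT. The ranges overlapped throughout, and no array lay farther than 0.57 from the reference. The differences of this probe were −0.0066 ± 0.15 in 0 vs. ctrl (limma adjusted p = 0.993), −0.09 ± 0.15 in 6 months vs. ctrl (0.913) and 0.08 ± 0.16 for 0 vs. 6 months (0.948). The other probes correlated with it by r = 0.86 and 0.82 over the 22 arrays after each group's mean was subtracted, and the closer of them gave −0.02, −0.05 and 0.04 in the same order. The third probe gave −0.13, 0.11 and −0.24, opposite in sign to the leading probe after ASIT against ctrl and for 0 vs. 6 months. Without single arrays the leading *LTA4H* values ran from −0.05 to 0.04, from −0.15 to −0.0065 and from −0.00012 to 0.15. The Cy5 channel alone gave 0.13 in 0 vs. ctrl and 0.09 in 6 months vs. ctrl for this probe, each with the sign turned. Before minus after, the leading probe differed by 0.33 within slide 3, by −0.18 within slide 4 and by 0.13 with the slide as a fixed block, and the third probe by −0.23 within slide 3 and −0.70 within slide 4.

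*LTC4S*, the synthase that joins leukotriene A4 to glutathione and so makes the first cysteinyl leukotriene, had higher medians in patients than in ctrl without passing the adjusted test (probe at chr11:1894582-1894795). Its values ran from −0.34 through −0.19 to 0.53 in ctrl, from −0.63 through −0.07 to 1.08 before ASIT, and from −0.17 through 0.31 to 1.29 after ASIT. Of the arrays after ASIT, 6 of 7 were above 0, against 3 of 8 in ctrl, and the ranges overlapped. In 6 months vs. ctrl the difference was 0.48 ± 0.25 (exact permutation p = 0.0476, limma adjusted p = 0.681), in 0 vs. ctrl 0.31 ± 0.25 (limma adjusted p = 0.691) and in 0 vs. 6 months −0.17 ± 0.26 (0.935). On the 4 arrays after ASIT of dogs 4, 5, 6 and 7, which share slide 6, the reference channel was not well above background, so the ratio rests there on a dim denominator. The Cy5 channel alone gave −0.08 in 6 months vs. ctrl, with the sign turned, and normexp with loess gave 0.10. A random block for the slide gave 0.44 (limma adjusted p = 0.996), and over all alternatives the adjusted p ran from 0.390 to 1.00. Single arrays left out gave *LTC4S* values of 0.33 to 0.58 there, 0.17 to 0.45 in 0 vs. ctrl and −0.31 to −0.03 for 0 vs. 6 months. Over the 13 alternatives other than arrays left out in turn, the 0 vs. ctrl difference ran from 0.09 to 0.38. The 0 vs. 6 months difference was 0.29 within slide 3, −0.01 within slide 4 and 0.17 with the slide as a fixed block.

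*ALOX15*, a lipoxygenase whose products include mediators that resolve inflammation, varied most between dogs (chr5:31890937-31890996). It ran from −0.45 through 0.15 to 2.65 in ctrl, from −1.16 through 0.44 to 2.31 before ASIT, and from −0.97 through 1.26 to 2.62 after ASIT. High and low dogs occurred in each group, and 2 ctrl dogs stood above the other 6. The pooled SD within groups was 1.22, above that of 99.5% of tested probes, whose median SD was 0.459. The differences between groups were small beside this spread, at −0.0025 ± 0.58 in 0 vs. ctrl (limma adjusted p = 0.999), 0.16 ± 0.58 in 6 months vs. ctrl (0.963) and −0.17 ± 0.59 for 0 vs. 6 months (0.970). Each of these *ALOX15* values took both signs when single arrays were left out, with −0.30 to 0.30, −0.16 to 0.47 and −0.47 to 0.16. Slides 3 and 4 gave 0.08 and 0.21 for the last difference, and the fixed block for the slide gave 0.13.

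The level of *ALOX15* before and after ASIT was alike within most dogs. Dogs 1 to 7 had values of −0.02, 1.30, 2.31, 1.31, 0.44, −0.62 and −1.16 before ASIT, and of −0.14, 1.26, 1.60, 1.26, 2.62, −0.97 and −0.91 after ASIT. Dog 5 moved by 2.18, and the other 6 dogs moved by at most 0.71. Over the 7 dogs the values before and after had Pearson's r = 0.74 (exact permutation p = 0.0667) and Spearman's rho = 0.71 (exact permutation p = 0.0881), and r = 0.66 without dogs 3 and 7, the farthest from the median before ASIT. This relation was computed for all 13 member probes, and it was closest for the other *PTGDR2* probe. There r was 0.91 (exact permutation p = 0.0095) and rho 0.71 (exact permutation p = 0.0881), neither adjusted for the 13 relations, and r was 0.67 without dogs 2 and 5. Dogs 1 and 2 were highest at both times, at 0.47 and 1.03 before ASIT and at 0.56 and 1.12 after ASIT. Their arrays shared slide 3 and held the strongest patient signals of this probe, so dog and slide cannot be told apart there. In the remaining 11 probes r lay between −0.39 (*ALOX5AP*) and 0.54 (*LTC4S*). The median over all tested probes was 0.359. The 3 dogs whose arrays shared a slide, and the 4 with arrays on different slides, are too few for a value within each.

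**Figure D2:**
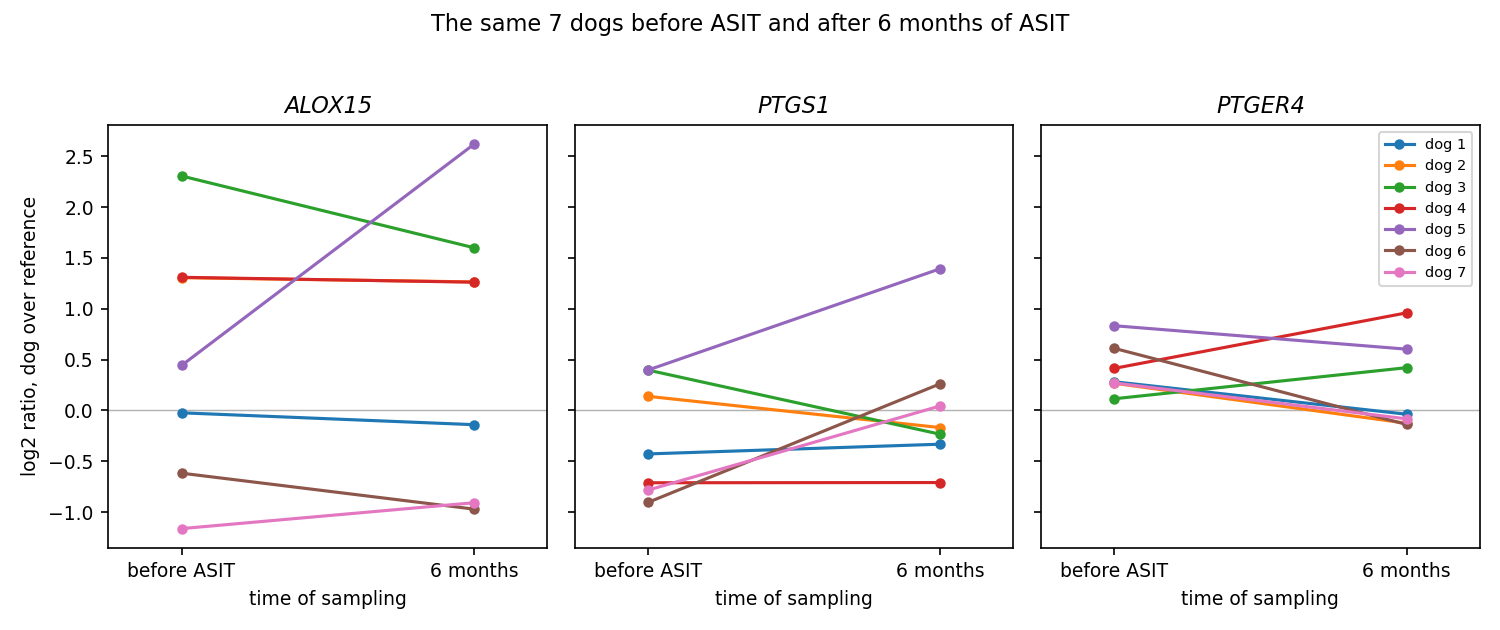
Log2 ratio of dog over reference (y axis) of *ALOX15*, *PTGS1* and *PTGER4* before ASIT and after 6 months of ASIT (x axis), with a line for each of the 7 dogs. Lines of *ALOX15* are mostly flat except in dog 5 (0.44 to 2.62), and dogs 2 and 4 lie on top of each other.

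Prostaglandin synthesis begins with the cyclooxygenases. *PTGS1*, the constitutive form that serves thromboxane production in platelets, was measured by 2 probes that correlated by r = 0.91 over the 22 arrays after group means were subtracted. The leading probe (chr9:60195350-60195409) ran from −0.93 through 0.10 to 0.58 in ctrl, from −0.91 through −0.43 to 0.40 before ASIT, and from −0.71 through −0.17 to 1.39 after ASIT. The groups overlapped, and dog 5 after ASIT lay above the ctrl range. The differences were −0.15 ± 0.29 in 0 vs. ctrl (limma adjusted p = 0.886), 0.15 ± 0.29 in 6 months vs. ctrl (0.920) and −0.31 ± 0.30 for 0 vs. 6 months (0.934), and the other probe gave −0.21, 0.18 and −0.39. Without dog 5 after ASIT, at 1.39, the *PTGS1* difference was −0.07 in 6 months vs. ctrl and −0.08 for 0 vs. 6 months. With single arrays left out, that in 0 vs. ctrl ran from −0.27 to −0.05. The Cy5 channel alone turned its sign, with 0.02 for the leading probe and 0.03 for the other. In 5 of 7 dogs the leading probe was higher after ASIT (exact sign-flip p = 0.266). Slides 3 and 4 gave 0.11 and 0.08 for 0 vs. 6 months, and the fixed block for the slide gave 0.09, opposite to the pooled sign.

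Platelet markers varied with *PTGS1*. Of 10 platelet genes 7 had a probe and 6 were tested, all of them above background on all 22 arrays. Its deviations from the group means correlated by r = 0.67 with the mean of 6 platelet genes over the 22 arrays, and by at most 0.44 with any of the other 8 blood cell lists. The platelet mean ran from −0.90 through 0.27 to 0.75 in ctrl, from −1.13 through −0.39 to 0.36 before ASIT, and from −0.87 through −0.0095 to 0.64 after ASIT. Its groups overlapped. The 6 genes were all lower in 0 vs. ctrl (median difference −0.54), with 0 called and a lowest limma adjusted p of 0.422. Of the 6, 1 was under an unadjusted p of 0.05, beside 11.7% of all tested probes. In 6 months vs. ctrl the 6 genes were lower again (median −0.13, 0 called), while *PTGS1* was at 0.15 with all arrays and at −0.07 without dog 5 after ASIT. For 0 vs. 6 months all 6 were lower (median −0.36), with 0 called and 0 under an unadjusted p of 0.05, beside 5.96% of all tested probes. The part of platelets in the *PTGS1* values was not tested.

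*PTGS2*, the cyclooxygenase induced in inflammation, was near background (chr7:19668185-19668244). Its ratio ran from −0.94 through −0.24 to 0.32 in ctrl, from −0.77 through −0.35 to 2.00 before ASIT, and from −0.61 through 0 to 0.25 after ASIT. Dogs 4, 5 and 6 before ASIT had 2.00, 0.56 and 1.02, above the other groups, and only dogs 5 and 6 of these had Cy5 above background. The processed Cy5 signal was 10.5 to 66.4 units over all arrays. The differences were 0.54 ± 0.32 in 0 vs. ctrl (limma adjusted p = 0.541), 0.21 ± 0.32 in 6 months vs. ctrl (0.892) and 0.33 ± 0.33 for 0 vs. 6 months (0.934). Without dog 4 before ASIT the *PTGS2* difference was 0.24 in 0 vs. ctrl (limma adjusted p = 0.760) and 0.03 for 0 vs. 6 months (0.998). After normexp and loess, which draw dim ratios towards 0, the differences were 0.02, 0.02 and 0.0064 in the order above. Over all alternatives the lowest limma adjusted p was 0.0571 in 0 vs. ctrl and 0.149 in 6 months vs. ctrl. With single arrays left out the 6 months vs. ctrl difference ran from 0.13 to 0.31. The 0 vs. 6 months difference was −0.47 within slide 3 and 1.22 within slide 4, and 0.21 with the slide as a fixed block.

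Among the receptors, *PTGDR2* binds prostaglandin D2 and marks type 2 helper T cells, eosinophils and basophils in people. Its leading probe (chr18:55429936-55429995) ran from −1.05 through −0.02 to 0.72 in ctrl, from −0.89 through 0.50 to 1.36 before ASIT, and from −0.93 through 0.94 to 1.46 after ASIT. After ASIT 6 of 7 arrays were above 0, with dog 4 lowest, against 3 of 8 in ctrl, and the ranges overlapped. In 6 months vs. ctrl the difference was 0.78 ± 0.36 (unadjusted limma p = 0.0402, adjusted p = 0.681, exact permutation p = 0.0507). In 0 vs. ctrl it was 0.46 ± 0.36 (limma adjusted p = 0.673), and in 0 vs. 6 months −0.32 ± 0.37 (0.934). Taking the slide as a random block gave 0.76 for 6 months vs. ctrl (limma adjusted p = 0.996), and normexp with loess gave 0.27. Without dog 4 after ASIT the *PTGDR2* difference was 1.06 (limma adjusted p = 0.227), and the lowest value with any array left out was 0.63. Such values ran from 0.30 to 0.68 in 0 vs. ctrl and from −0.60 to −0.10 for 0 vs. 6 months. For 6 months vs. ctrl the adjusted p over all alternatives ran from 0.155 to 1.00. For 0 vs. 6 months, slides 3 and 4 gave −0.05 and −0.32, and the fixed block for the slide −0.16.

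The other *PTGDR2* probe (chr18:55432250-55432308) did not share this pattern. It ran from −0.17 through 0.33 to 0.80 in ctrl, from −0.29 through 0.18 to 1.03 before ASIT, and from −0.52 through 0.07 to 1.12 after ASIT. Its differences were −0.03, −0.14 and 0.11 in the order 0 vs. ctrl, 6 months vs. ctrl and 0 vs. 6 months, so the receptor's probes had opposite signs against ctrl. With the series matrix values the 0 vs. ctrl difference of this probe was 0.04. In the Cy5 channel alone, without the reference, this probe was the only member called, 1 of 13 beside 4097 of all 38292 tested probes, so the share of members called was not above that of all probes. Its difference there was −0.80 in 0 vs. ctrl (limma adjusted p = 0.0353, and 0.0353 to 1.00 over 13 alternatives), where the leading probe had 0.14. The mean log2 signal of this probe in Cy3, the same reference on every array, was also lower before ASIT (6.91) than in ctrl (7.46). Its processed Cy5 signal had a median of 552 units in ctrl, 110 before ASIT and 73.8 after ASIT. The lowest was 424 units in ctrl, 50.6 before ASIT and 57.4 after ASIT. Most patient ratios of this probe thus rest on weak signals, and the part of signal strength in its differences was not tested. Both probes correlated by r = 0.72 over the 22 arrays after group means were subtracted.

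The leading *PTGDR2* probe varied with the ratios of GC-rich probes on the same array. It holds 60% G and C, against a median of 45% over all tested probes. After group means were subtracted it correlated by r = 0.90 with the median of the 3714 GC-rich probes (at least 55%) and by −0.85 with that of the 3300 GC-poor probes (at most 35%). Of 19993 other well-detected probes, 1388 (6.94%) correlated with it above 0.9, and their median GC content was 55%. Among the other GC-rich members, r with the GC-rich median was 0.74 for *LTC4S* (60%), 0.73 for the other *PTGDR2* probe (55%), whose differences from ctrl were negative, and 0.06 for *ALOX15* (55%). With each array's GC trend removed, an alternative chosen after seeing the data, the 6 months vs. ctrl difference was 0.68 for *PTGDR2* (limma adjusted p = 0.626) and 0.38 for *LTC4S* (0.631). That step subtracted from each probe the median of its array over probes of like GC content. A dependence of a single probe steeper than that of these probes therefore stays in its value. The GC-rich median of the arrays had a middle value of 0.04 in ctrl, 0.08 before ASIT and 0.19 after ASIT, with overlap. The part of base composition in these values was not tested.

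Erythroid markers varied with *PTGDR2* as well. Of 7 genes 5 had a probe, each above background on all 22 arrays, and their mean correlated with the leading probe by r = 0.86. That mean ran from −1.66 through −0.36 to 1.31 in ctrl, from −1.45 through 0.67 to 1.35 before ASIT, and from −0.75 through 0.86 to 1.57 after ASIT, with overlap. All 5 genes were higher in 0 vs. ctrl, with a median of 0.49, and in 6 months vs. ctrl, with a median of 0.93. Of the 5, 0 were called or under an unadjusted p of 0.05, beside 11.7% and 7.2% of all tested probes under that value. The erythroid mean had r = 0.60 with *LTC4S* and −0.63 with *PTGER4*, and *PTGDR2* had −0.63 with the monocyte genes. With the lists nearest to the cell types it marks in people, *PTGDR2* had r = −0.02 (eosinophil), −0.21 (basophil and mast cell) and 0.26 (T cell). The part of erythroid cells in these values was not tested.

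**Figure D3:**
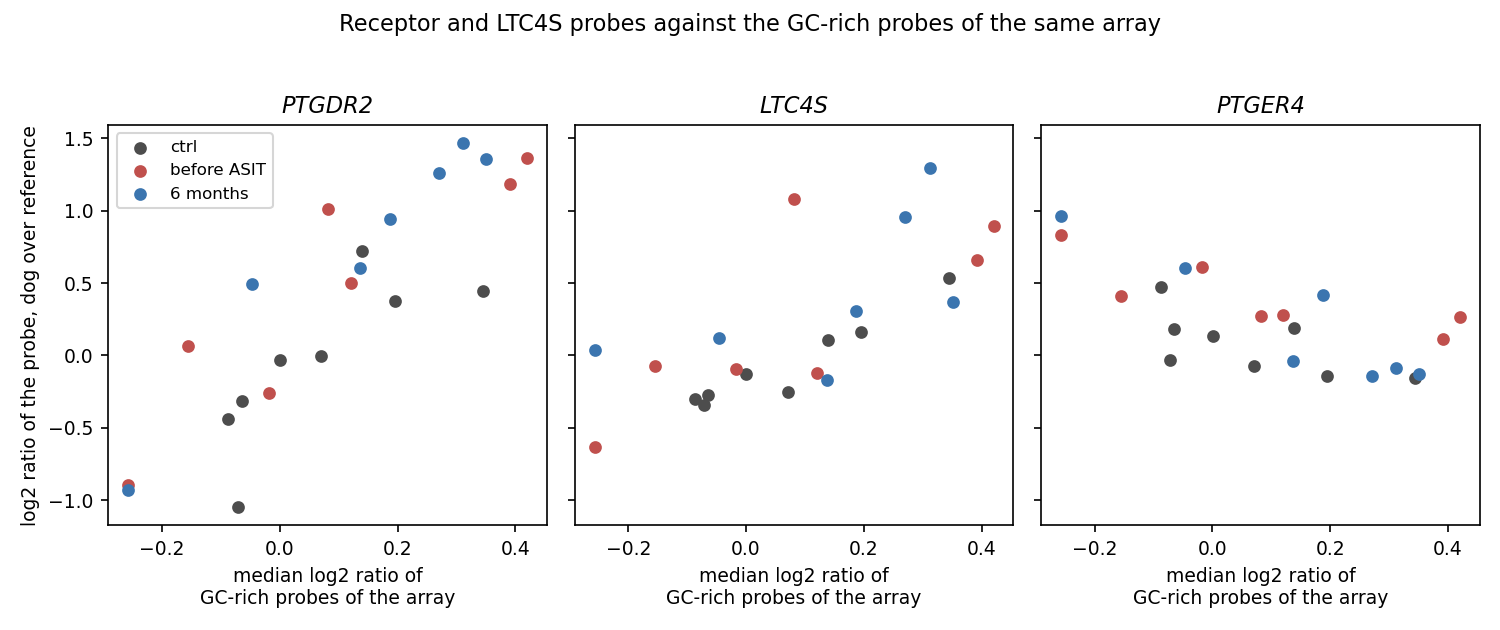
Log2 ratio of the *PTGDR2*, *LTC4S* and *PTGER4* probes (y axis) against the median log2 ratio of GC-rich probes on the same array (x axis), with each array coloured by group. Points of *PTGDR2* climb along the x axis and those of *PTGER4* descend, with r = 0.90 and −0.80 after group means were subtracted.

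*PTGER4* encodes a prostaglandin E2 receptor that raises cyclic AMP in immune cells (chr4:68663425-68663484). Its values ran from −0.16 through 0.05 to 0.47 in ctrl, from 0.11 through 0.28 to 0.83 before ASIT, and from −0.14 through −0.04 to 0.96 after ASIT. Before ASIT 7 of 7 arrays were above 0, against 4 of 8 in ctrl and 3 of 7 after ASIT, and the ranges overlapped. In 0 vs. ctrl the difference was 0.33 ± 0.17 (exact permutation p = 0.0162, limma adjusted p = 0.474), in 6 months vs. ctrl 0.16 ± 0.17 (limma adjusted p = 0.844) and in 0 vs. 6 months 0.17 ± 0.18 (0.934). The exact p is not adjusted for the 39 tests made. Without dog 4 after ASIT, at 0.96, the *PTGER4* value in 6 months vs. ctrl was 0.03. The Cy5 channel alone gave −0.11 in 6 months vs. ctrl and 0.19 in 0 vs. ctrl. With single arrays left out the others ran from 0.25 to 0.38 in 0 vs. ctrl and from 0.10 to 0.29 for 0 vs. 6 months. A random block for the slide gave 0.33 in 0 vs. ctrl (limma adjusted p = 0.762), and removal of the GC trend gave 0.30 (limma adjusted p = 0.342), within a range of 0.319 to 1.00 over all alternatives. The probe holds 35% G and C and correlated by r = −0.80 with the GC-rich median. In 5 of 7 dogs *PTGER4* was higher before than after ASIT (exact sign-flip p = 0.312). That difference was 0.36 within slide 3, −0.16 within slide 4 and 0.15 with the slide as a fixed block.

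The sequences of 3 probes show what was hybridized. They are those of the array design, written 5′ to 3′, with *PTGDR2* and *LTC4S* shown for their difference from ctrl after ASIT and their high GC content, and *ALOX15* for its spread. The 60 bases of the *LTC4S* probe are spread over 214 bases of genome. No annotation of canFam3.1 was used here to place them in exons.
PTGDR2: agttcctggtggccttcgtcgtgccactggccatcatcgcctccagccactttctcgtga
LTC4S: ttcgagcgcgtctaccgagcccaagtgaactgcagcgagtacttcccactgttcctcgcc
ALOX15: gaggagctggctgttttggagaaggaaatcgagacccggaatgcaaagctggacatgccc

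Genes that varied most like each member were named by Pearson's r over the 22 arrays after each group's mean was subtracted, among well-detected probes with a gene symbol. These values are descriptive, since the arrays share a reference and 7 dogs appear on 2 arrays each. *ALOX5* was most like *SEPX1* (r = 0.91) and *RAB2A* (0.90), and *ALOX5AP* like *KLF5* (0.85) and *DDA1* (0.82). *LTA4H* was most like *RPS6KA3* (0.88) and *KDM3A* (0.87), and *PTGER4* like *PAXBP1* (0.93) and *KDM3A* (0.93). *PTGS1* was nearest to *ITGB5* (0.83) and *ACOT7* (0.73), and *ALOX15* to *OOEP* (0.72) and *DESI1* (0.70). *PTGDR2* was nearest to *CBLN3* (0.99) and *ZG16B* (0.99), 2 of the 1388 probes above 0.9. *LTC4S* and *PTGS2* were not eligible, since they were not well above background in both channels on all arrays.

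Members were also set beside the means of blood cell marker genes over the 22 arrays, with group means subtracted and no test made. *ALOX5* correlated by r = 0.74 with the mean of 9 neutrophil genes and by −0.70 with that of 4 B cell genes. *ALOX5AP* had r = 0.59 with 8 monocyte genes and 0.57 with the neutrophil genes, and *LTA4H* had r = 0.57 with the monocyte genes. On the negative side, *ALOX5AP* had −0.54 with 4 cytotoxic lymphocyte genes and −0.45 with the erythroid genes, and *LTA4H* had −0.61 with the B cell and −0.51 with the erythroid genes. *PTGER4* had 0.51 and *LTC4S* −0.54 with the monocyte genes. *ALOX15* reached no more than 0.28 (neutrophil), and −0.39 with the 2 eosinophil genes with a probe, *CCR3* and *IL5RA*. The 60 tested marker genes gave 0 limma calls in each comparison, with 3 under an unadjusted p of 0.05 for 0 vs. ctrl, 4 for 6 months vs. ctrl and 1 for 0 vs. 6 months. Of all tested probes 11.7%, 7.2% and 5.96% were under that value in this order. Median differences from ctrl, before and then after ASIT, were 0.0024 and 0.06 for neutrophil, −0.10 and −0.0040 for monocyte, 0.10 and −0.23 for T cell, −0.03 and −0.26 for B cell, 0.19 and −0.22 for cytotoxic lymphocyte, 0.23 and 0.04 for eosinophil, and 0.15 and 0.45 for basophil and mast cell genes.

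Further genes of the pathway were read from a list of 47, of which 40 had a probe and 38 were tested. Limma called 0 of the 38 in each comparison, with 5 under an unadjusted p of 0.05 for 0 vs. ctrl, 7 for 6 months vs. ctrl and 2 for 0 vs. 6 months, beside 11.7%, 7.2% and 5.96% of all tested probes. The lowest limma adjusted p was 0.252, 0.643 and 0.465 in this order, for *PTGES2*, *PTGDS* and *PTGDS*. Of the genes under the unadjusted 0.05, *GGT5*, *PTGES2*, *PLA2G10*, *PTGDS*, *PTGIS* and *PTGFR* passed the filter only through ctrl. Each had at most 3 arrays above background before ASIT and at most 2 after ASIT. These counts, lowest p values and the medians below include such genes, and nothing is concluded from them. In 0 vs. ctrl 21 were higher and 17 lower, in 6 months vs. ctrl 20 and 18, and in 0 vs. 6 months 21 and 17. For 0 vs. ctrl the median difference was 0.22 in the 6 tested phospholipases, 0.26 in the 4 other lipoxygenases, −0.06 in the 5 genes of cysteinyl leukotriene synthesis and processing, and 0.14 in the 2 other leukotriene and oxoeicosanoid receptors. It was −0.05 in the 8 prostanoid terminal synthases, 0.11 in the 6 other prostanoid receptors and −0.02 in the 7 genes of transport and breakdown. The medians for 6 months vs. ctrl, in the order of these lists, were 0.08, 0.24, −0.08, 0.27, −0.14, 0.19 and −0.08. Those for 0 vs. 6 months were 0.08, 0.06, 0.42, −0.13, −0.0087, −0.19 and 0.03. *PTGR2* and *PTGER2* had a probe but too few arrays above background to be tested.

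Among these genes, *HPGD*, the dehydrogenase that inactivates prostaglandins, had the widest difference in 6 months vs. ctrl. It ran from −0.91 through −0.09 to 0.30 in ctrl, from −1.06 through −0.26 to 4.57 before ASIT, and from −0.10 through 0.44 to 5.70 after ASIT. The highest arrays were those of dog 6 before ASIT and of dogs 3, 6 and 7 after ASIT, at 4.57, 5.70, 2.17 and 2.93, and the other arrays stayed at or below 0.61. Its Cy5 signal exceeded background in 6 of 8 ctrl dogs, in 3 of 7 patients before ASIT and in 3 of 7 later, so many of these values lie near background, and dogs 4 and 5 after ASIT had ratios of exactly 0. The difference was 1.75 ± 0.79 in 6 months vs. ctrl (limma adjusted p = 0.681), and in 0 vs. 6 months it was −1.34 ± 0.81 (0.926). Both *HPGD* differences rest largely on the few high arrays named, dog 3 after ASIT most, and no value with single arrays left out is given for them. The mast cell and basophil protease *CPA3*, singled out after its values were seen, was highest on the same arrays, at 5.95, 5.81, 3.82 and 3.06, with every other array of the patients at or below 1.37. Its list of 8 genes with a probe was mixed, with 5 higher and 3 lower in 6 months vs. ctrl, the lower being *KIT* (−0.55), *ENPP3* (−0.74) and *CMA1* (−0.28). The mean of the 3 list genes above background on all arrays was 1.07 in dog 6 before ASIT and 1.83, −0.12 and −0.21 in dogs 3, 6 and 7 after ASIT, against −0.64 to 0.41 in ctrl.

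*PTGDS*, the lipocalin-type prostaglandin D synthase, differed by −0.99 ± 0.33 in 6 months vs. ctrl (limma adjusted p = 0.643) and by 1.07 ± 0.34 in 0 vs. 6 months (0.465). Its probe was above background on 8 of 8 ctrl arrays but on 2 of 7 before and 2 of 7 after ASIT, which leaves most patient values near background. *GGT5*, which processes leukotriene C4, differed by −0.80 ± 0.33 in 0 vs. ctrl (limma adjusted p = 0.320) and by −0.95 ± 0.33 in 6 months vs. ctrl (0.659), with 8 of 8 ctrl arrays and 1 and 2 of 7 patient arrays above background before and after ASIT. Both *PTGDS* and *GGT5* reached the 7 arrays of the filter only through ctrl, and most of their patient values lie near background. Their differences are descriptive, and nothing is concluded from their tests. *MGST3*, a microsomal glutathione transferase, had 1.36 ± 0.75 in 0 vs. ctrl (limma adjusted p = 0.505) and rested on dog 7 before ASIT, at 7.55, where the next highest dog had 0.78. Its median was −0.21 in ctrl, 0.18 before ASIT and 0.01 after ASIT. The lowest and highest ratios of all these genes overlapped between the groups.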

How the data were processed

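Per the file headers, the log10 ratio of Cy5 to Cy3 came from Agilent Feature Extraction (10.10.1.1 in the headers, 10.7.3.1 per the labels), which set part of the spots at background to 0. The processed intensity of each channel, as deposited, was background-subtracted and Lowess dye-normalized, and the raw intensity columns were deposited as scanned. Flags for signal above background, saturation and outlier spots were used per the file headers. The authors' series matrix of log10 ratios equalled the scanner values on the 14 cAD arrays, correlated by r = 0.711 to 0.844 on the 8 ctrl arrays, had column medians from −0.0002 to 0.0073, and how the ctrl columns were made stays unknown.

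Ratios were converted to log2. Control spots and 87 non-uniformity outlier spots were left out, spots of a probe were averaged, and 38292 probes with Cy5 above background on at least 7 arrays entered a limma fit of 3 groups. Versions were R 4.3.3, limma 3.58.1 and, for reading the spots, the package data.table (version 1.17.8). Exact tests used scipy 1.17.1 with numpy 2.4.6 and pandas 2.3.3 in Python 3.11.15, and plots matplotlib 3.10.9. Cy5 alone was corrected with normexp (offset 50) and quantile-normalized.

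Named are the 10 members, the 2 genes most like each leading probe, and the 2 further pathway genes with the largest difference per comparison. Other genes are named where detection or a marker list is described. The leading probe has Cy5 above background on the most arrays, then the highest median signal. Members and lists were chosen with earlier results of these data known. Pairing of dogs came from the labels: arrays of the same dog correlated by r = 0.469, 0.555, 0.165, 0.248, 0.334, −0.0358 and 0.247 in dogs 1 to 7 after group means were subtracted, and for dogs 3, 5 and 6 another dog's array after ASIT correlated more.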

Additional observations from a re-analysis of the deposited data

Results flagged for a closer look

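In 7 of 81 groups of values, a single array lay far from the rest of its group. Chance alone would mark about 1 in 20 groups chosen beforehand. The groups of *MGST3*, *HPGD*, *PTGDS*, *GGT5* and *CPA3* were instead chosen from these data, for large differences or after their values were seen. The count therefore cannot be compared with that rate. After ASIT, *ALOX5AP* in dog 4 was at a log2 ratio of 0.74, with the next highest dog at 0.19. The other *PTGS1* probe was at 1.48 in dog 5 after ASIT, with the next at 0.30. The leading *PTGDR2* probe was at −0.93 in dog 4 after ASIT, with the nearest dog at 0.50. *MGST3* was at 7.55 in dog 7 before ASIT, with the next at 0.78. In dog 6 before ASIT, *HPGD* was at 4.57, with the next dog at 0.61, and *CPA3* was at 5.95. The mean of the 3 basophil and mast cell genes above background on all arrays was at 1.83 in dog 3 after ASIT, with the next dog at 0.02.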

How the results depend on the processing

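For the leading probes, 978 differences were recomputed under the alternatives, of which 594 came from arrays left out in turn. Leaving out 1 array moves a group mean by well under 1 SD, and another filter or test leaves the difference as it was. The count of small moves is therefore no measure of stability. Of the 978, 974 moved by less than 1 SD between replicates, 4 moved by more, 53 changed sign and 0 were called by limma or Tukey's test. The 4 were *LTC4S* in 6 months vs. ctrl from Cy5 alone (−0.08) and, from the 3 dogs with both arrays on the same slide, 0 vs. 6 months of *PTGS2* (−0.37), *ALOX5AP* (0.23) and *ALOX5* (0.37). Cy5 alone called 1 of 13 member probes in 0 vs. ctrl, beside 4097 of 38292 tested probes, and the cause was not tested.

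Over all probes, 16 were called in 0 vs. ctrl. The count was 0 after normexp and loess, with the strict filter (19995 probes tested), with Tukey's test, with slide or scan day as a random block, and with a replicate block by replicate number, which pairs unrelated dogs. It was 9 from the series matrix and 4097 from Cy5 alone. Cy5 alone gave 1139 in 6 months vs. ctrl, against 0, and testing all 43603 probes gave 1 in 0 vs. 6 months, against 0. The cause was not tested. Leaving out population outlier spots (16) and removing the GC trend (11), both chosen after seeing the data, left 0 member probes called.

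Leaving out each array in turn gave 0 to 440 calls in 0 vs. ctrl, 0 to 2 in 6 months vs. ctrl and 0 to 103 in 0 vs. 6 months, and 0 to 0 member probes in all 3. For 0 vs. ctrl the count was 440 without dog 1 before ASIT, 135 without dog 2 before, 92 without dog 3 after, 10 without dogs 4 or 7 before or dog 5 after, and 1 without dog 5 before. It was 0 without dogs 3 or 6 before or ctrl 1, 2, 4, 5 or 8, and 5, 6 and 3 without ctrl 3, 6 and 7. For 6 months vs. ctrl it was 2 without dog 1 before or dog 2 after and 1 without dog 1 after. For 0 vs. 6 months it was 103 and 19 without dogs 1 and 2 before, 94 without dog 3 after and 1 without dog 6 after. Signal over background limits *PTGS2* and, in the reference channel, *LTC4S*, and the other *PTGDR2* probe was weak on most patient arrays.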
